A study of Mus musculus with 8 samples.

Results

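Genes of oxidative phosphorylation were followed across the progenitor states of mouse KL cells and between mice in conventional and specific-pathogen-free housing. The members were the gene rows whose symbols begin with Nduf and a subunit letter (a, b, c, s or v), Uqcr, Cox4 to Cox8, Atp5 or mt-, or are Sdha, Sdhb, Sdhc or Sdhd, with at least 100 UMIs (unique molecular identifiers, which count captured mRNA molecules) and no pseudogene suffix. They came to 101 of the 27998 genes in the table, 88 of them nuclear and 13 carried by the mitochondrial genome. Of the 105 rows that matched by name, Cox7b2, Cox8b and Ndufa4l2 had 0 UMIs and Cox8c had 5, while the member with the fewest, Cox7a1, had 344. The nuclear members held 36 subunits of complex I, 4 of complex II, 8 of complex III, 15 of complex IV and 15 of ATP synthase (complex V), plus 10 genes that share the names but act in assembly or alongside the complexes (7 Ndufaf genes, Cox7a2l, Atp5s and Atp5sl). The mitochondrial members held 7 subunits of complex I, 1 of complex III, 3 of complex IV and 2 of complex V.

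KL cells are bone marrow cells that carry CD117 (c-Kit) and lack CD3, CD4, CD8, CD45R, CD11b, TER119 and GR1, and they were sorted by FACS from female B6 mice aged 3 to 4 months. SPF mice stayed in a specific-pathogen-free facility, and CVT mice had been moved from it to a conventional facility and co-housed for 1 month with CVB mice, which were bred there. By the sample titles each group held 10 mice, combined before library preparation into 4 pools of 2 or 3 mice, so the pool is the replicate and a single mouse cannot be followed. The number of mice given elsewhere in the study's text differs from that in the titles, which was used here. Libraries were made with a 10x 3′ kit, which reads each mRNA near its poly(A) tail.

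The table held 29891 cells, 12331 from SPF and 17560 from CVT mice, with 19041749 to 59812346 UMIs per pool, and SPF replicates 1 and 3 had the lowest totals. The last number in a cell's name was taken to be the number in the sample descriptions and gave its pool. Nothing else in the labels ties cells to pools, so every CVT against SPF value below rests on that match. Of 29365 distinct cell barcodes, 522 occurred in more than 1 pool. Mitochondrial UMIs exceeded 10% in 254 cells.

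The respiratory chain passes electrons from NADH through complex I, or from succinate through complex II, by way of complexes III and IV to oxygen, and the proton gradient that results drives ATP synthase. Complex II is built from nuclear genes alone, whereas each of the other complexes joins nuclear subunits, imported from the cytosol, with subunits made inside the mitochondrion from a single circular genome. Resting hematopoietic stem cells are known to draw mainly on glycolysis, and oxidative phosphorylation is known to become more important as progenitors divide and differentiate.

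To compare states, cells were clustered on genes other than the members, and clusters were named from marker genes. LTHSC-like cells numbered 971, MPP-like cells 1700, LMPP-like cells 2195, megakaryocyte-like cells 2756, erythroid-like cells 6002, GMP-like cells 3350, late granulocyte-like cells 1663, monocyte-like cells 2881 and basophil and mast-like cells 947, and 7128 cells stayed unnamed. The LTHSC markers (Procr, Hlf, Mecom and others) made up 0.135% ± 0.013 (SD, n = 8 pools) of UMIs in LTHSC-like cells and 0.0192% ± 0.0031 in all KL cells. The same markers named the clusters, so their shares do not test the names. Late granulocyte markers (Camp, Ltf, Ngp and others) reached 37.8% of UMIs in late granulocyte-like cells although the sort had gated on CD11b and GR1. A cluster of 277 cells led by interferon-response genes was counted as erythroid-like, since it held more erythroid markers than markers of any other class. Class sizes depended on the clustering. At resolution 1 the LTHSC-like class, the reference for the comparisons below, held 2925 cells, and the GMP-like class held 943. With 50 principal components they held 2796 and 2819.

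The promoters of 5 nuclear members are shown. These genes were among those that changed most in either direction against LTHSC-like cells, and they differ in the motifs they carry. Sdhd, Cox5a and Cox7a2l are taken up below. With each pool left out in turn, the log2 fold change was 1.38 to 1.44 for Atp5k in GMP-like cells. For Cox6a1 it was 1.34 to 1.45 in erythroid-like cells. Each run is the 250 bases before the start of transcription in RefSeq (GRCm38.p6), read 5′ to 3′ on the gene's strand, with matches to the NRF1 motif, which spans 10 bases, and the ETS motif CCGGAAG on either strand in capitals.
Atp5k (chr5:108434400-108434649, minus strand): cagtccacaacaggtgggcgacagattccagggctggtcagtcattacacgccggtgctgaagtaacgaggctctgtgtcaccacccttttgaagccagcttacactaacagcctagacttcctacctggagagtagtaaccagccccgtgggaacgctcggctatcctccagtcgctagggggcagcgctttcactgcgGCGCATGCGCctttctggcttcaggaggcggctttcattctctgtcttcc
Sdhd (chr9:50603850-50604099, minus strand): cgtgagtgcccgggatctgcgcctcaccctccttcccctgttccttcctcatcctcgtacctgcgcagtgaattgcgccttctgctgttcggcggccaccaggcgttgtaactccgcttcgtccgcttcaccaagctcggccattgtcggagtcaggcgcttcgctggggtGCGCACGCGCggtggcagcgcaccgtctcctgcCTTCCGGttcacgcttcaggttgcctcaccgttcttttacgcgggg
Cox6a1 (chr5:115348959-115349208, minus strand): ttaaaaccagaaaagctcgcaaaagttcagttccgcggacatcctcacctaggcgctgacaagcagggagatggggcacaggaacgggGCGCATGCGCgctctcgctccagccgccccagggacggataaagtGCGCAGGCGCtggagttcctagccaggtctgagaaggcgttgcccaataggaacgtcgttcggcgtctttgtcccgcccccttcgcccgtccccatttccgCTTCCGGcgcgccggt
Cox5a (chr9:57520982-57521231, plus strand): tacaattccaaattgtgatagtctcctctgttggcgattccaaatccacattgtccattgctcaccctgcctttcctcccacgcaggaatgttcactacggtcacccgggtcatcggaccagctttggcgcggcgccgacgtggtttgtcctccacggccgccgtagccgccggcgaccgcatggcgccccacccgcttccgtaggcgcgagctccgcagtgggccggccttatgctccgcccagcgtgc
Cox7a2l (chr17:83514334-83514583, minus strand): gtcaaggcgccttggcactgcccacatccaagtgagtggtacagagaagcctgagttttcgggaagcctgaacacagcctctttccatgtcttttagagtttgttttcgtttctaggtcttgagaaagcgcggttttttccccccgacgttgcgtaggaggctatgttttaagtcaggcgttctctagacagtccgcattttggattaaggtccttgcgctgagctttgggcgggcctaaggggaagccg
Atp5k encodes a small subunit of ATP synthase, Sdhd a membrane anchor of complex II, and Cox6a1 and Cox5a subunits of complex IV. Cox7a2l encodes a factor described as joining complexes III and IV into supercomplexes. Supercomplexes were not measured here, and whether the factor acts this way in these mice was not tested. Within the 250 bases printed, Atp5k, Sdhd and Cox6a1 carried the NRF1 motif, and Sdhd and Cox6a1 also the ETS motif. Neither was found in the runs of Cox5a and Cox7a2l. The Cox7a2l run lies inside the gene as annotated in GENCODE (83501918 to 83517330, minus strand). It therefore does not cover the bases before the gene's outermost annotated start. In the longer windows counted next, which reach past the start, Atp5k also had the ETS motif.

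RefSeq promoters reaching from 250 bases before to 50 bases after the start matched 71 of the 88 nuclear members by symbol, with 76 promoters. The NRF1 motif was in 20 of these 76 (26.3%) and in 4.60% of all 32851 promoters, or 9.97% of the 12150 promoters of genes with at least 100 UMIs. The ETS motif was in 17 of the 76 (22.4%), against 8.86% of all promoters and 17.4% of those of genes with at least 100 UMIs. The motif AAGATGGC of YY1 was in 9 of the 76 (11.8%), against 2.75% and 4.46%. None of these motif matches is evidence of binding in KL cells.

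Over cells of all depths, the share of nuclear members was higher and that of mitochondrial members lower in GMP-like and erythroid-like cells than in LTHSC-like cells. The nuclear members took the smallest share of UMIs in LTHSC-like cells among the LTHSC-like, LMPP-like, MPP-like, megakaryocyte-like, erythroid-like and GMP-like classes, and the mitochondrial members took their largest share there. The 8 pools of LTHSC-like cells ranged from 2.27% to 2.48% for the nuclear members, with a median of 2.41%, and those of GMP-like cells from 3.65% to 3.93%, with a median of 3.80%. Erythroid-like pools ranged from 3.32% to 3.80% with a median of 3.74%. No pool of either class overlapped the LTHSC-like pools. The mean nuclear share was 2.39% ± 0.07 (SD, n = 8) in LTHSC-like, 2.65% ± 0.05 in LMPP-like, 2.93% ± 0.11 in MPP-like, 3.01% ± 0.07 in megakaryocyte-like, 3.68% ± 0.16 in erythroid-like and 3.81% ± 0.10 in GMP-like cells. MPP-like and megakaryocyte-like cells overlapped in their pools, as did erythroid-like and GMP-like cells. Late granulocyte-like cells held 2.14% ± 0.18, the lowest of the 9 named classes examined.

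The mitochondrial members took 3.45% ± 0.22 (SD, n = 8) of UMIs in LTHSC-like cells, 3.13% ± 0.18 in both LMPP-like and MPP-like cells, 2.95% ± 0.12 in GMP-like, 2.89% ± 0.18 in erythroid-like and 2.73% ± 0.15 in megakaryocyte-like cells. In late granulocyte-like cells the share was 1.62% ± 0.28. The ratio of nuclear to mitochondrial UMIs does not depend on how libraries are scaled, and it was below 1 in every pool of LTHSC-like cells, from 0.630 to 0.762. It averaged 0.848 ± 0.052 in LMPP-like, 0.940 ± 0.068 in MPP-like, 1.10 ± 0.053 in megakaryocyte-like, 1.28 ± 0.068 in erythroid-like, 1.296 ± 0.055 in GMP-like and 1.34 ± 0.15 in late granulocyte-like cells. These shares and ratios describe the classes, and no test was run on them.

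**Figure D1:**
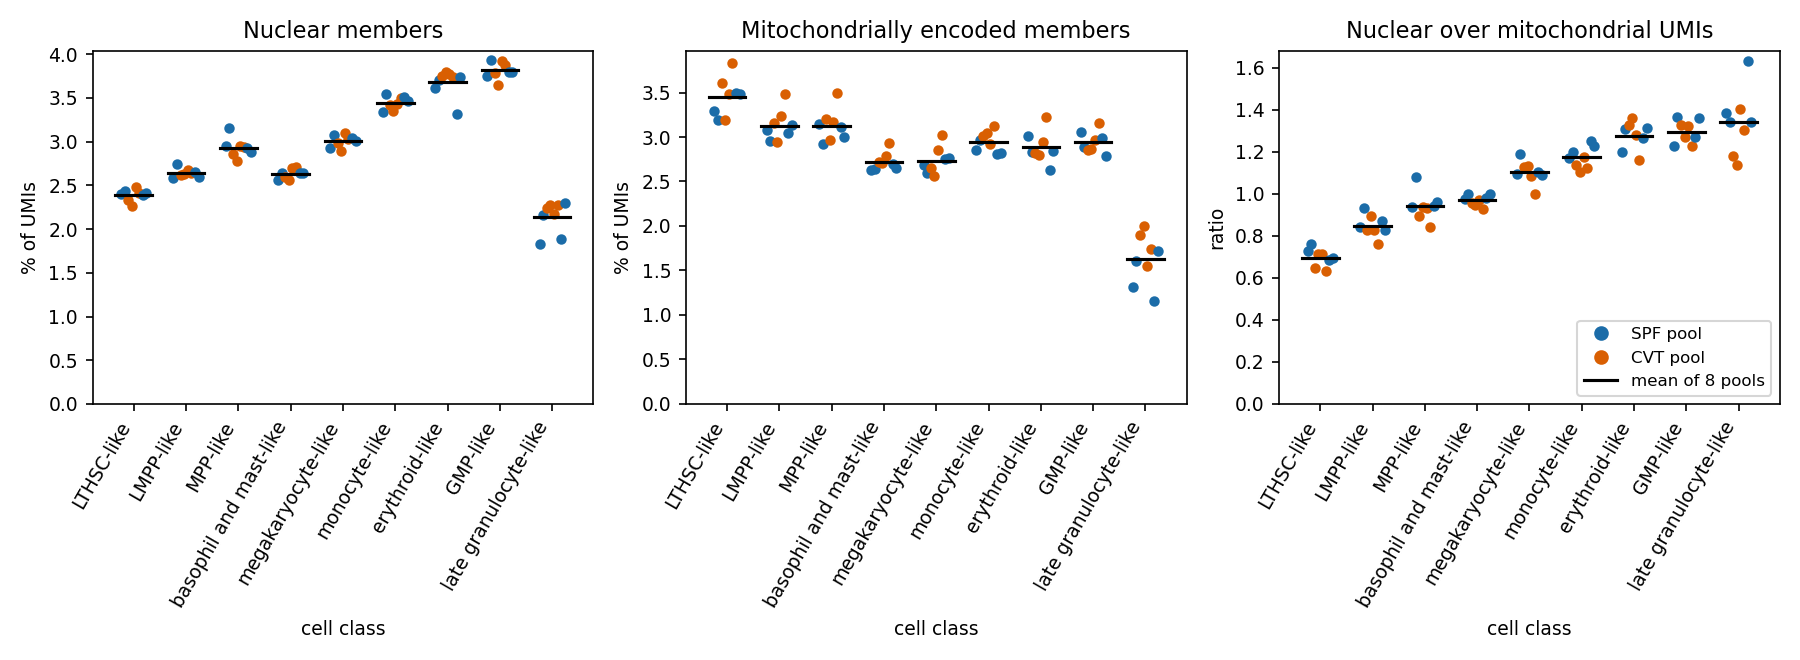
Share of UMIs in nuclear members (left) and mitochondrially encoded members (middle), in percent, and their ratio (right), for each of 8 pools (points, coloured by housing) in 9 classes, with the mean of the pools as a line. The mean nuclear share is 2.39% in LTHSC-like and 3.81% in GMP-like cells and is lowest in late granulocyte-like cells. No LTHSC-like pool has a ratio above 0.762.

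UMIs per cell moved with these shares. The mean of the pool medians was 5429 UMIs per cell in LTHSC-like, 12702 in erythroid-like and 16696 in GMP-like cells, and G2/M genes took 0.0188% of UMIs in LTHSC-like, 0.166% in erythroid-like, 0.0907% in GMP-like and 0.183% in megakaryocyte-like cells. Among cells of 5000 to 12000 UMIs alone, the ratio was 0.725 ± 0.040 (SD, n = 8) in LTHSC-like, 0.999 ± 0.096 in erythroid-like, 0.964 ± 0.169 in GMP-like and 1.08 ± 0.05 in megakaryocyte-like cells. In that window the erythroid-like and GMP-like ratios were thus nearer to that of LTHSC-like cells, and 1 GMP-like pool was left with 8 cells. The nuclear share was 2.44% ± 0.076 in LTHSC-like, 2.82% ± 0.12 in erythroid-like and 3.45% ± 0.21 in GMP-like cells of that window. The mitochondrial share was 3.37% ± 0.19 in LTHSC-like, 2.84% ± 0.24 in erythroid-like and 3.67% ± 0.60 in GMP-like cells, so the lower mitochondrial share of GMP-like cells was not seen there. The part of cell size and division in the differences was not tested.

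Within the erythroid-like class the shares differed between clusters. Cluster 7, with a median of 6454 UMIs per cell, had 2.61% nuclear and 2.38% mitochondrial UMIs, and cluster 9, with 10864.5 UMIs, had 3.23% and 2.66%. Cluster 14, with 20436 UMIs, had 4.01% and 3.12%, and cluster 5, with 28776.5 UMIs, had 4.18% and 3.06%. Over the 8 clusters of the class the nuclear share ran from 2.60% to 4.18%, the mitochondrial share from 2.38% to 3.12% and the ratio from 1.05 to 1.36. The order of these summed values did not follow UMIs per cell throughout. Cluster 29, with 12015 UMIs, had 2.39% mitochondrial UMIs. Cluster 30, with 15680.5 UMIs, had 3.14% nuclear UMIs and the lowest ratio. These exceptions are uncertain, since the smallest pool of cluster 29 held 4 cells and that of cluster 30 held 1. The mitochondrial share of cluster 29 varied between pools from 1.99% to 3.91%. Its nuclear share was at least 3.85% in replicates 1 and 2 of either housing and at most 3.19% in the remaining pools. Late granulocyte-like clusters also differed, with 2.82% nuclear and 2.67% mitochondrial UMIs in cluster 27 and 1.48% and 0.798% in cluster 18. Within cluster 18 the mitochondrial share was 1.51% and 1.64% in CVT replicates 1 and 2 and 0.565% to 0.809% in the other 6 pools. The pool with the fewest cells of cluster 18 held 26, and for cluster 27 that number was 3.

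Gene by gene, UMIs summed per pool were compared with LTHSC-like cells of the same pools by edgeR's quasi-likelihood test with pool as a block. In GMP-like cells 81 of 86 nuclear members tested rose at an adjusted p under 0.05 and 1 fell, whereas 35.6% of all 8784 genes tested rose and 37.6% fell (73.2% called in all). In erythroid-like cells 80 of 85 rose and 2 fell, against 36.5% and 36.6% of all 9453 genes (73.1% called). The median log2 fold change of the nuclear members was 0.91 in GMP-like and 0.77 in erythroid-like cells, and that of all genes tested was -0.05 and 0.00. TMM scaling, used here, shifted fold changes upward by 0.27 in GMP-like and 0.18 in erythroid-like cells relative to library sizes alone, under which 75 nuclear members rose and 3 fell in GMP-like cells, where 24.6% of all genes rose and 51.5% fell. In erythroid-like cells 78 rose and 4 fell with library sizes alone, against 28.8% and 44.6% of all genes. Within cells of 5000 to 12000 UMIs the erythroid-like median was 0.28, with 69 of 85 nuclear members higher and 3 lower, against 25.9% and 26.0% of the 8072 genes tested.

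Complex I takes electrons from NADH. All 36 of its nuclear members rose in GMP-like cells, with a median log2 fold change of 0.91, and 34 of 36 rose in erythroid-like cells, where Ndufa6 and Ndufa13 were not called. Ndufv1, the subunit that binds NADH, ranged from 59.6 to 122 CPM (counts scaled so that all genes of a pool add up to 1000000) in the LTHSC-like pools (median 78.6) and from 123 to 176 in the erythroid-like pools (median 144), so the groups did not overlap. Its log2 fold change was 1.05 (SE 0.08) in erythroid-like cells, edgeR adjusted p 5.3e-15, and 0.85 (SE 0.08) in GMP-like cells.

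Complex II oxidises succinate and is also an enzyme of the tricarboxylic acid cycle. Its 4 members rose in both classes. Sdhd ranged from 88.2 to 109 CPM in the LTHSC-like pools (median 95.8), from 146 to 195 in the GMP-like pools (median 180) and from 216 to 256 in the erythroid-like pools (median 254), with no overlap among the 3 classes. Its log2 fold change was 1.55 (SE 0.06) in erythroid-like cells, edgeR adjusted p 1.5e-23. Sdha, the catalytic flavoprotein, rose by only 0.36 (SE 0.06) on the same scale, and Sdhb, the iron-sulfur subunit, by 1.08 (SE 0.06).

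Complex III passes electrons from ubiquinol to cytochrome c. All 8 nuclear members rose in erythroid-like cells and 7 of 8 in GMP-like cells, where Uqcrh, the hinge subunit, had a log2 fold change of 0.03 (SE 0.03) and was not called. Uqcrq, a small subunit, ranged from 197 to 244 CPM in the LTHSC-like pools (median 217) and from 572 to 634 in the GMP-like pools (median 594). Its log2 fold change in GMP-like cells was 1.75 (SE 0.04), edgeR adjusted p 1.6e-44. The core subunit Uqcrc1 rose by 1.003 (SE 0.05) and the Rieske protein Uqcrfs1 by 0.73 (SE 0.05), so that members of a single complex spanned 0.03 to 1.75.

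Complex IV reduces oxygen. All 13 nuclear members tested rose in GMP-like cells, with a median log2 fold change of 1.17, and all 12 tested rose in erythroid-like cells, with a median of 1.03. Cox5a, a nuclear-encoded subunit of the enzyme, ranged from 279 to 369 CPM in the LTHSC-like pools (median 333) and from 860 to 959 in the GMP-like pools (median 913). The 2 ranges lie far apart, and the log2 fold change was 1.75 (SE 0.04), edgeR adjusted p 1.0e-47, the largest among nuclear members in that comparison. Cox4i1, the main isoform of the subunit that binds ATP, rose by 0.79 (SE 0.03) in GMP-like and 0.45 (SE 0.04) in erythroid-like cells.

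ATP synthase showed the same direction in every nuclear member, with 15 of 15 called higher in both classes. Atp5g1, which encodes the same ring subunit c as Atp5g2 and Atp5g3, ranged from 368 to 459 CPM in the LTHSC-like pools (median 421), from 934 to 1028 in the GMP-like pools (median 980) and from 1091 to 1347 in the erythroid-like pools (median 1254). In erythroid-like cells the log2 fold change was 1.75 (SE 0.04) for Atp5g1, 1.27 (SE 0.06) for Atp5g3 and 0.55 (SE 0.04) for Atp5g2. Atp5g1 made up 41.2% ± 2.1 (SD, n = 8) of the UMIs of Atp5g1 and Atp5g2 in the LTHSC-like class, 58.4% ± 1.0 in the GMP-like class and 61.6% ± 1.1 in the erythroid-like class. The balance among the genes for this subunit thus differed between the classes without overlap with LTHSC-like pools. Atp5b, the catalytic beta subunit, rose by 1.08 (SE 0.04) in erythroid-like and 1.04 (SE 0.03) in GMP-like cells.

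The 10 assembly-related members were mixed. In GMP-like cells 6 rose, all of them Ndufaf genes, which build complex I, and Cox7a2l fell. Cox7a2l ranged from 680 to 873 CPM in the LTHSC-like pools (median 714), from 324 to 409 in the GMP-like pools (median 345) and from 351 to 381 in the erythroid-like pools (median 371). It fell by 0.75 (SE 0.04) in GMP-like and by 0.81 (SE 0.04) in erythroid-like cells on the log2 scale, edgeR adjusted p 6.8e-28 and 1.7e-19. LMPP-like pools stayed at 606 to 700, and Cox7a2l was called lower in MPP-like, megakaryocyte-like, erythroid-like, GMP-like and late granulocyte-like cells. These 5 comparisons share the LTHSC-like cells. Atp5sl also fell in erythroid-like cells, by 0.73 (SE 0.14).

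**Figure D2:**
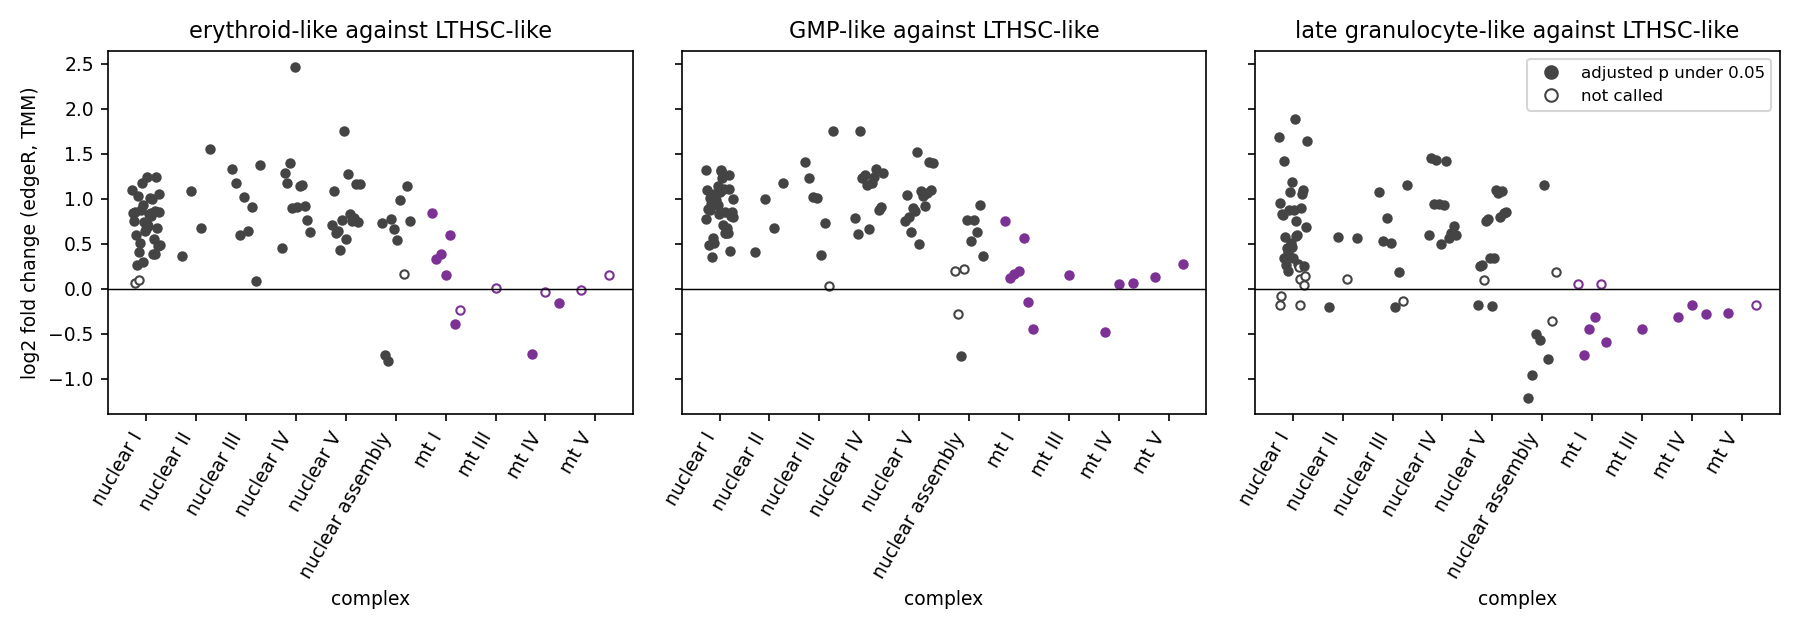
Log2 fold change against LTHSC-like cells (edgeR, TMM scaling) of each member, grouped by complex and by the genome that carries it, in erythroid-like, GMP-like and late granulocyte-like cells. Filled points passed an adjusted p of 0.05. Nuclear subunits of complexes I to V lie mostly above 0, with 81 of 86 nuclear members higher in GMP-like cells. Mitochondrial members lie on both sides of 0 in erythroid-like and GMP-like cells and mostly below 0 in late granulocyte-like cells. The late granulocyte-like panel depends on the scaling.

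The multipotent classes showed smaller steps. In MPP-like cells 68 of 85 nuclear members rose and 4 fell, against 25.8% and 28.2% of all 7651 genes tested (53.9% called), with a median log2 fold change of 0.34. Megakaryocyte-like cells were similar, with 69 of 85 higher and 3 lower, against 26.2% and 28.6% of 8204 genes (54.8% called), and a median of 0.32. In LMPP-like cells 53 of 86 rose and 2 fell, against 20.6% and 19.6% of 8206 genes (40.2% called), with a median of 0.17, and within cells of 5000 to 12000 UMIs 26 of 86 rose and 3 fell, against 15.5% and 14.3% of 7564 genes. Cox6a2, tested there, had 2 UMIs in LTHSC-like cells. It passed the count filter through LMPP-like cells alone, so only a rise could be called for it. Ndufa4, an accessory subunit now placed in complex IV, ranged from 662 to 877 CPM in the LTHSC-like pools (median 815), from 1350 to 1769 in the MPP-like pools (median 1634) and from 1200 to 1678 in the LMPP-like pools (median 1278). It led the MPP-like comparison with a log2 fold change of 1.06 (SE 0.03), edgeR adjusted p 1.1e-37. Cox5a rose by 0.996 (SE 0.04) in MPP-like and 0.80 (SE 0.04) in LMPP-like cells. It was among the 6 members with the largest rise in 5 of the 6 classes compared. In LMPP-like cells Cox6a2, taken up below, rose more, by 6.35 to 7.10 on the log2 scale with each pool left out in turn.

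Late granulocyte-like cells depended on the scaling. With TMM 62 of 83 nuclear members were higher and 9 lower, against 35.3% and 37.1% of all 6803 genes (72.5% called), but with library sizes alone 17 were higher and 48 lower, against 14.2% and 72.1%. TMM shifted fold changes by 0.83 on the log2 scale there, and the late granulocyte markers alone held 37.8% of UMIs. Ndufb7, a small complex I subunit, was higher under both, with 205 to 270 CPM in the LTHSC-like pools (median 228) and 441 to 506 in the late granulocyte-like pools (median 478), and a log2 fold change of 1.88 (SE 0.07) with TMM. Ndufaf4 and Ndufaf2, assembly factors of complex I, were lower, by 0.77 (SE 0.17) and 0.57 (SE 0.13).

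The mitochondrial genes, which are transcribed as long joint precursors, did not move as a unit. In GMP-like cells 10 of 13 were called higher and 3 lower with TMM, with 35.6% and 37.6% of all genes called, and 2 higher and 10 lower with library sizes alone, with 24.6% and 51.5% of all genes called. Their median log2 fold change was 0.13 with TMM and -0.14 with library sizes alone, and that of all genes -0.05 and -0.32. In erythroid-like cells 5 of 13 were higher and 3 lower with TMM, near the 36.5% and 36.6% of all genes, and 4 higher and 7 lower with library sizes alone, against 28.8% and 44.6%. Megakaryocyte-like cells had 8 of 13 lower and 1 higher under both scalings, against 28.6% and 26.2% of all genes with TMM and 28.3% and 26.4% with library sizes alone. In MPP-like cells 2 were higher and 5 lower with TMM, against 25.8% and 28.2% of all genes. In LMPP-like cells 0 were higher and 5 lower with TMM, against 20.6% and 19.6%. In late granulocyte-like cells 0 were higher and 9 of the 12 tested lower with TMM, against 35.3% and 37.1%.

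The clearest contrast was between mt-Nd1 and mt-Co1. mt-Nd1, a core subunit of complex I, ranged from 1503 to 2265 CPM in the LTHSC-like pools (median 1849), from 2360 to 2750 in the GMP-like pools (median 2609) and from 2652 to 3256 in the erythroid-like pools (median 2851). mt-Co1, the catalytic subunit of complex IV, went the other way, with 6390 to 7877 in the LTHSC-like pools (median 7393), 3938 to 4695 in the GMP-like pools (median 4213) and 3529 to 4459 in the erythroid-like pools (median 3754). Neither gene's LTHSC-like range overlapped that of GMP-like or erythroid-like cells, and both directions held with library sizes alone. The log2 fold change of mt-Nd1 was 0.84 (SE 0.04) in erythroid-like and 0.76 (SE 0.03) in GMP-like cells, and mt-Co1 fell by 0.73 (SE 0.03) and 0.49 (SE 0.02), edgeR adjusted p 1.6e-25 and 7.7e-33. mt-Co1 was called lower in all 6 classes compared, which share the LTHSC-like cells, and fell by 0.70 (SE 0.02) in megakaryocyte-like cells.

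The other subunits of complex IV made by the mitochondrion moved less, and mt-Co3 fell by 0.15 (SE 0.03) in erythroid-like cells. mt-Atp6, a subunit of the membrane part of ATP synthase, had the most UMIs of all members, 2341447 over all cells, and its log2 fold change in erythroid-like cells was -0.01. mt-Nd6, the only member on the minus strand of the mitochondrial genome, was scarce, with a median of 15.2 CPM in the LTHSC-like pools. mt-Atp8 and mt-Atp6 share 43 bases in GENCODE M21 (GRCm38), mt-Nd4l and mt-Nd4 share 7, and mt-Atp6 and mt-Co3 share 1, so reads of these pairs, and those of nuclear members with processed pseudogenes, are uncertain.

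**Figure D3:**
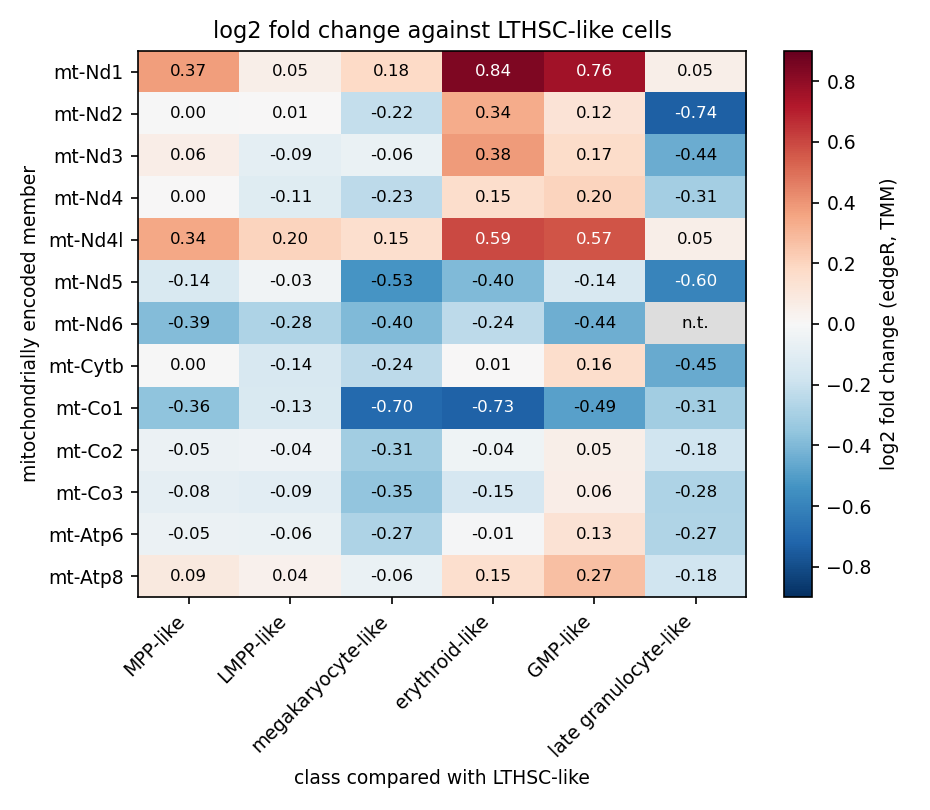
Log2 fold change (edgeR, TMM scaling; printed in each cell and coloured from blue for lower to red for higher) of the 13 mitochondrial members in 6 classes against LTHSC-like cells; n.t. marks a gene not tested. mt-Nd1 is highest in erythroid-like cells at 0.84, and the mt-Co1 row is negative in all 6 classes.

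Tissue-restricted isoforms of complex IV were present in particular classes. Cox6b2, known as the testis isoform of Cox6b, ranged from 64.4 to 88.8 CPM in the LTHSC-like pools (median 68.6) and from 303 to 401 in the erythroid-like pools (median 350). The log2 fold change was 2.46 (SE 0.07), edgeR adjusted p 1.6e-29, the largest of any member in that comparison. Erythroid-like cells held 60.2% of all Cox6b2 UMIs. Cox6b2 made up 29.4% ± 1.5 (SD, n = 8) of the UMIs of Cox6b1 and Cox6b2 in erythroid-like cells, 21.8% ± 2.0 in basophil and mast-like cells, 12.3% ± 1.1 in the LTHSC-like and 9.06% ± 0.59 in the GMP-like class. It was lower in LMPP-like cells, where the pools ranged from 42.0 to 67.1 CPM and the log2 fold change was -0.44 (SE 0.09).

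Cox6a2, known as the heart and skeletal muscle isoform of Cox6a, was nearly absent from LTHSC-like cells and present in LMPP-like and dendritic-like cells. LTHSC-like cells held 2 UMIs of it in 971 cells and LMPP-like cells 717 UMIs in 364 of 2195 cells. The ratio of CPM was 116, with a 95% interval from 31.9 to 956 that covers counting error only. All 8 LMPP-like pools lay between 21.7 and 51.3 CPM, above every LTHSC-like pool. In the 79 dendritic-like cells, whose leading genes included Siglech, Cd74 and Ly6d, 68 cells (86.1%) had at least 1 UMI, and the level was 1253 CPM over the class, from 438 to 1949 in the pools, which held only 2 to 18 such cells each. The share of cells with a UMI was 16.6% in LMPP-like, 13.9% in monocyte-like, 5.34% in GMP-like, 0.816% in erythroid-like and 0.206% in LTHSC-like cells, at medians of 7558, 14100, 16510, 13200 and 5390 UMIs per cell. The 79 dendritic-like cells thus held 20.3% of all Cox6a2 UMIs and the LMPP-like cells 25.2%. Members had been left out of the clustering, but these are values of clustered cells and were not tested for dendritic-like cells.

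**Figure D4:**
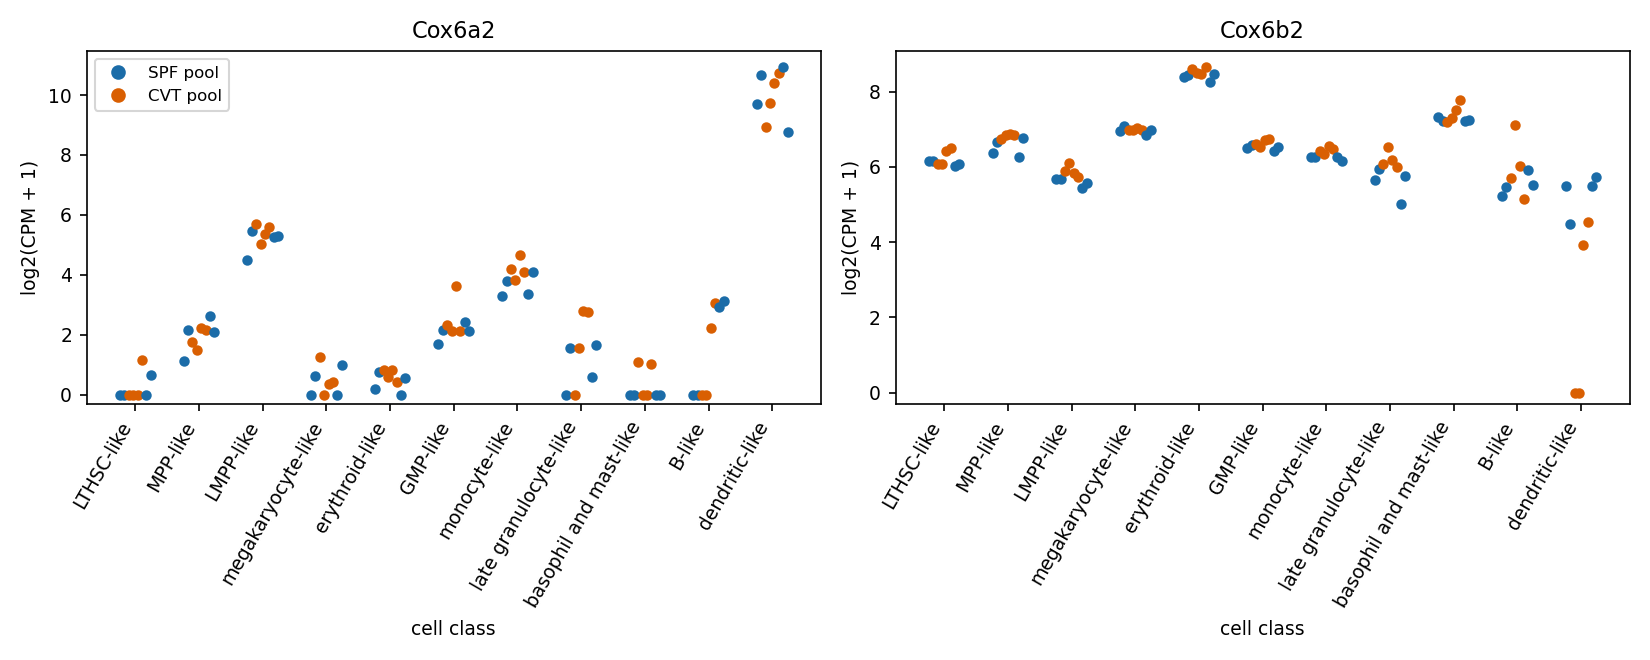
Level of Cox6a2 (left) and Cox6b2 (right), as log2 of CPM plus 1, in each pool (points, coloured by housing) of 11 classes. Cox6a2 is highest in dendritic-like pools (438 to 1949 CPM, from 2 to 18 cells each) and next in LMPP-like pools (21.7 to 51.3), and Cox6b2 is highest in erythroid-like pools (303 to 401).

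Cox4i2, the isoform of Cox4 known from lung and induced by low oxygen, and Cox7a1, known from muscle, stayed at trace levels. Cox4i2 averaged 9.35 ± 2.37 (SD, n = 8) CPM in monocyte-like cells and 0.240 ± 0.120 in erythroid-like cells, and made up 0.335% ± 0.060 of the Cox4i1 and Cox4i2 UMIs over all KL cells. Cox7a1 was 0.183% ± 0.028 of the Cox7a1 and Cox7a2 UMIs. Thus Cox4i1 and Cox7a2 supplied nearly all mRNA of these subunits.

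Genes that work beside the members moved in part with the nuclear set. For each list below, the shares of all genes tested that rose and fell were 35.6% and 37.6% in the GMP-like comparison and 36.5% and 36.6% in the erythroid-like one. In GMP-like cells 11 of 14 other respiratory and ATP handling genes outside the member list rose. Among them Cycs, which encodes cytochrome c, rose by 2.35 on the log2 scale, and Slc25a5, an ADP/ATP carrier, by 1.64. In erythroid-like cells Cycs rose by 1.86. Of 16 tricarboxylic acid cycle and pyruvate dehydrogenase genes, 14 rose in GMP-like and 14 in erythroid-like cells, and of 76 mitochondrial ribosomal protein genes, 72 and 73 rose. Assembly factors outside the member list were more mixed, with 16 of 30 higher and 4 lower in GMP-like cells. Of the regulators of mitochondrial transcription and biogenesis, 8 of 25 were higher and 6 lower in GMP-like cells, and 12 of 25 higher and 2 lower in erythroid-like cells. Nrf1, which encodes the factor whose motif is shown above, had log2 fold changes of -0.08 in GMP-like cells, where it was not called, and 0.49 in erythroid-like cells, where it rose. Of the glycolysis genes, 12 of 19 rose and 4 fell in GMP-like cells, whereas 6 of 18 rose and 10 fell in erythroid-like cells. The difference between these classes in glycolysis genes was not tested. All 17 G2/M genes rose in both classes. Of the cytosolic ribosomal protein genes, 71 of 90 rose and 12 fell in GMP-like cells and 59 of 91 rose and 16 fell in erythroid-like cells. Genes of the handling stress response mostly fell, 10 of 12 in GMP-like and 9 of 13 in erythroid-like cells.

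Housing was compared next, to ask whether the members differed between CVT and SPF mice. Over all KL cells the nuclear members took 3.42%, 3.38%, 3.27% and 3.32% of UMIs in CVT replicates 1 to 4 and 3.20%, 3.35%, 3.04% and 3.24% in SPF replicates 1 to 4. The CVT mean was higher by 0.143 percentage points (3.35% ± 0.06 against 3.20% ± 0.13, SD, n = 4), and the pools overlapped. With the named classes weighted equally the difference was 0.0213 percentage points, and without SPF replicate 3 it was 0.0871. Late granulocyte markers took 4.66% of UMIs in SPF replicate 3 and 0.588% to 2.81% in the other pools, and GMP markers 0.706% ± 0.106 in CVT and 0.556% ± 0.047 in SPF pools. The part of cell composition in the difference was not otherwise tested.

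The mitochondrial members took 2.85%, 2.83%, 2.90% and 3.14% in CVT replicates 1 to 4 and 2.89%, 2.82%, 2.70% and 2.84% in SPF replicates 1 to 4. The CVT mean was higher by 0.118 percentage points (2.93% ± 0.14 against 2.81% ± 0.08, SD, n = 4), again with overlap, and by 0.0487 without CVT replicate 4, the highest pool. Within pools 1 to 4 the means were 2.84% in CVT and 2.85% in SPF pools, and within pools 5 to 8 they were 3.02% and 2.77%. For the nuclear members the same means were 3.40% and 3.27%, and 3.30% and 3.14%. Class by class, the mitochondrial share was higher on average in CVT pools in all 9 classes, and in 7 of 9 without CVT replicate 4, while the nuclear share was higher in 3 of 9. The ratio of nuclear to mitochondrial UMIs was higher on average in CVT pools in 1 of 9 classes, and in 2 of 9 without CVT replicate 4. It was lower in every CVT pool than in every SPF pool in MPP-like cells (0.842 to 0.936 against 0.938 to 1.081) and in basophil and mast-like cells (0.926 to 0.970 against 0.977 to 0.9995). In the latter class the mitochondrial share also lay above without overlap, at 2.71% to 2.93% in CVT and 2.63% to 2.70% in SPF pools. These values were not tested, and over all KL cells the ratio was 1.14 ± 0.066 in CVT and 1.14 ± 0.035 in SPF pools (SD, n = 4). The classes come from the same pools and are not independent.

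No member passed the test over all KL cells. By edgeR's quasi-likelihood test 0 of 13092 genes had an adjusted p under 0.05 (0.0%), and at an unadjusted p under 0.05, 33 of 101 members were higher in CVT pools and 0 lower, where 2.99% of all genes were higher and 4.04% lower. That count fell to 6 with library sizes alone, where 1.19% of genes were higher, to 15 without CVT replicate 4 and to 14 without SPF replicate 3. For the fits that left out a pool, the shares of all genes are not given here. Whether those drops are particular to the members was not tested. DESeq2 called 30 genes (0.229% of those tested), 10 of them members and all 10 higher in CVT pools, from complex I (Ndufv3), complex III (Uqcr10, Uqcr11 and Uqcrq) and complex IV (Cox5b, Cox6a1, Cox6b1, Cox7a2, Cox8a and mt-Co2). The median log2 fold change by edgeR was 0.10 for the nuclear and 0.11 for the mitochondrial members, and -0.01 for all genes. Of the other lists, cytosolic ribosomal proteins had a median of 0.12 and mitochondrial ribosomal proteins of 0.09, with 0 genes called in either. Handling stress genes had a median of 0.27 and G2/M genes of 0.22, also with 0 called, and their part in the members' differences was not tested.

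Among the members with the lowest p, mt-Co2, a catalytic subunit of complex IV, had 3095, 3097, 3146 and 3474 CPM in CVT replicates 1 to 4 and 2969, 2959, 2903 and 3024 in SPF replicates 1 to 4. All CVT pools lay above all SPF pools, and the log2 fold change was 0.16 (SE 0.05), edgeR adjusted p 0.66. Cox8a, a small subunit of complex IV, had 1173, 1194, 1145 and 1192 in CVT and 1108, 1137, 1049 and 1097 in SPF pools, with a log2 fold change of 0.15 (SE 0.04), and did not overlap either. Uqcrq had 454, 460, 429 and 446 in CVT and 406, 432, 388 and 412 in SPF pools, with 1 overlapping pair of pools and a log2 fold change of 0.18 (SE 0.05). In all, 8 of 101 members had CVT pools above SPF pools without overlap (Ndufb11, Ndufb5, Ndufb7, Cox7a2, Ndufv3, Ndufa11, Cox8a and mt-Co2) and 0 had them below, where 0.916% of the 12767 genes with at least 100 UMIs lay above and 5.27% below. At the other end, Atp5sl, Ndufaf5 and mt-Nd4l had log2 fold changes of -0.06, -0.02 and -0.09 and overlapped between the groups.

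**Figure D5:**
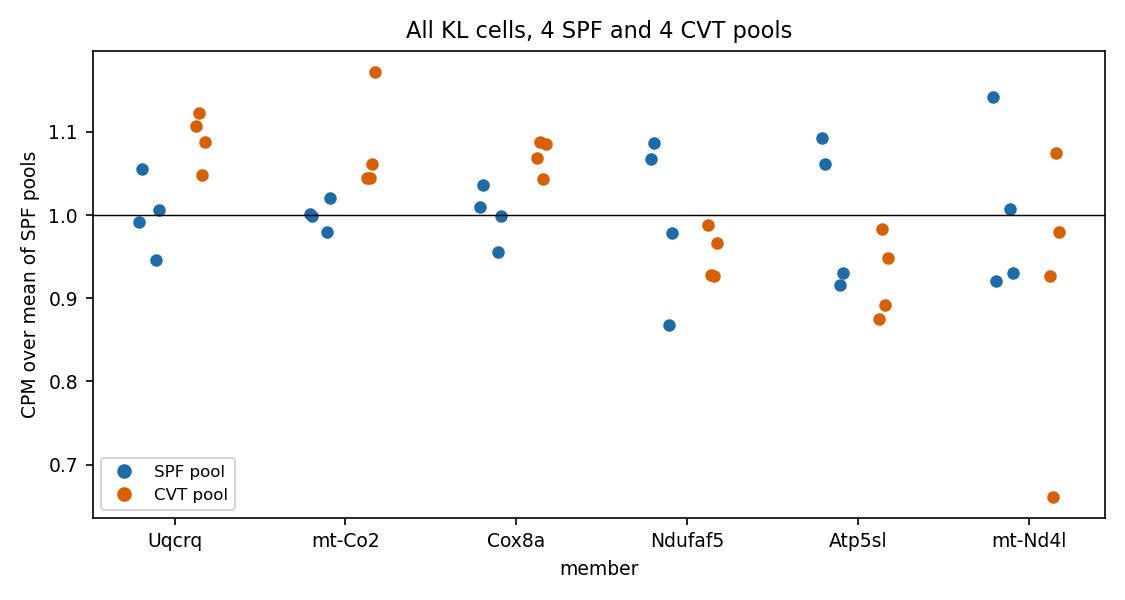
CPM in all KL cells, divided by the mean of the 4 SPF pools, for the 3 members with the lowest p in each direction (points, 4 SPF and 4 CVT pools). All CVT pools of mt-Co2 and Cox8a lie above all SPF pools, and Ndufaf5, Atp5sl and mt-Nd4l overlap.

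Within the LTHSC-like, LMPP-like, erythroid-like and GMP-like classes, the 4 tested for housing, edgeR called 0 of all genes (0.0%) and 0 members. At an unadjusted p under 0.05, the LTHSC-like class had 8 members higher and 1 lower, where 3.2% of all genes were higher and 2.08% lower. The LMPP-like class had 8 and 1 (3.06% and 2.23% of all genes), the erythroid-like class 4 and 0 (2.23% and 3.05%) and the GMP-like class 6 and 0 (3.03% and 2.61%). Cox7a2l had the lowest p of the members in GMP-like cells, with 381 ± 26.5 CPM in CVT and 335 ± 8.35 in SPF pools (SD, n = 4), no overlap, a log2 fold change of 0.22 (SE 0.06) and an edgeR adjusted p of 0.73. Cox6b2 had 58.5 ± 6.23 CPM in CVT and 47.2 ± 3.80 in SPF pools of LMPP-like cells and 374 ± 24.3 and 333 ± 21.7 in those of erythroid-like cells, and the pools did not overlap in either class. The median log2 fold change of the nuclear members was 0.02 in LTHSC-like, 0.05 in LMPP-like, 0.08 in erythroid-like and 0.02 in GMP-like cells, and that of the mitochondrial members 0.11, 0.12, 0.08 and 0.05. An interaction of housing with the pool set (pools 1 to 4 or 5 to 8) was called for 0 members over all KL cells, with 3 members positive and 7 negative at an unadjusted p under 0.05, where 3.86% of all genes were positive and 5.22% negative.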

How the data were processed

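The authors deposited 1 table of UMI counts per gene and cell for the sorted KL cells. The submitters' processing notes name Cell Ranger and mm9, with no version for the former. The counts are not normalized, and UMIs collapse PCR copies. Positions and promoters come from GENCODE M21 and RefSeq on GRCm38, whose coordinates are not those of mm9. The members and lists were chosen with earlier results of these data known.

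Cells were clustered (scikit-learn 1.9.0, leidenalg 0.10.2, igraph 0.11.9) on 1000 variable genes that excluded the members, with 30 principal components, 30 neighbours, resolution 2 and seed 1. Clusters were named from at least 3 markers. Doublets were not called or removed. UMIs were summed per pool, and per pool and class. Sums were tested with edgeR 4.0.16 (quasi-likelihood, TMM, filterByExpr) in R 4.3.3, across all genes that passed the filter, with Benjamini-Hochberg adjustment and a threshold of 0.05. Pool was a block in comparisons between classes, since both classes come from the same mice. DESeq2 1.42.0 was an alternative, as were other size factors, no filter, other clusterings, a cell filter (1000 or more genes, no more than 10% mitochondrial UMIs), leaving out each pool, and, chosen after seeing the data, library sizes alone, cells of 5000 to 12000 UMIs, no late granulocyte-like cells and equal class weights. Scripts were tested on simulated data. Shares of UMIs, given as a percent of deposited counts, were not tested.

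Named genes were the 6 called members with the largest change in each direction per comparison that moved the same way in every pool, or the 3 with the lowest p in each direction where none was called, plus core subunits, isoform pairs and all mitochondrial members. Other genes and values named, such as Uqcrh, Ndufa6 and Ndufa13 among the uncalled, Cycs, Slc25a5, Nrf1, and genes carried over to a class where the rule did not pick them, were chosen after their values were seen. The pool of a cell rests on the number in its name. In housing comparisons p-values weigh a difference against the spread between pools of a group. In comparisons of classes they weigh it against the spread of the within-pool differences. Intervals cover counting error only.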

Additional observations from a re-analysis of the deposited data

Results flagged for a closer look

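The level of mt-Co2 over all KL cells in CVT replicate 4, 3474 CPM, stood apart from the other 3 CVT pools, with a gap of 0.864 of the group's range, above Dixon's critical value for 4 samples. Of 42 such group values examined, chance flags about 1 in 20 groups.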

How the results depend on the processing

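Of 1461 gene values recomputed over 83 gene results, 1417 kept their direction and side of the threshold, 32 lost the call, 3 gained it and 9 changed sign, and the cause of these changes was not tested. DESeq2 called 10 members between CVT and SPF mice where edgeR called 0. In LMPP-like cells of 5000 to 12000 UMIs, 33 members were called and 26 nuclear members rose. With library sizes alone 17 nuclear members rose in late granulocyte-like cells. Signs changed for Ndufa13 (0.0459) and mt-Co3 (0.0481) in MPP-like cells at resolution 1, and without a filter on low counts for mt-Co3 in MPP-like (0.0207) and erythroid-like cells (0.0705), mt-Atp6 in LMPP-like cells (0.0089) and mt-Nd5 in GMP-like cells (0.0200). Leaving out 1 pool each, the CVT against SPF value ranged from -0.0679 to 0.0309 for Ndufaf5, positive without SPF replicate 1 or 2, and from -0.168 to 0.034 for mt-Nd4l, positive without CVT replicate 2. Without the replicate block the members called numbered 68 in MPP-like, 50 in LMPP-like, 89 in erythroid-like, 77 in megakaryocyte-like, 88 in GMP-like and 77 in late granulocyte-like cells. The shares of all genes called without the block are not given here. With pool as the block they numbered 79, 60, 90, 81, 95 and 80, where 53.9%, 40.2%, 73.1%, 54.8%, 73.2% and 72.5% of all genes were called. Whether the change differed from that of all genes was not tested. No paired analysis was possible between CVT and SPF mice because a pool holds mice of 1 housing only and its number pairs no samples. The GMP-like comparison in cells of 5000 to 12000 UMIs was not run, since 1 pool held 8 such cells. Low counts limit Cox7a1, Cox4i2 and mt-Nd6.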
